A study of Mus musculus with 26 samples.

Results

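Transcripts of Tex10 and of 6 partners of its protein were followed through 26 mouse RNA-seq libraries from 3 experiments on loss or gain of Tex10, controls included. The 7 genes were chosen by name, as the subunits and partners of the PELP1-TEX10-WDR18 rixosome: Tex10, Pelp1, Wdr18, Las1l, Nol9, Senp3 and Mdn1. They are 7 of the 54589 genes listed in at least 1 of the 3 deposited tables, and all 7 passed the filter on low values in every table. The question was whether the partner transcripts follow the loss or the gain of Tex10.

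The rixosome is a nucleolar and nuclear complex that removes an internal spacer from the precursor of the large ribosomal subunit RNA, a step in the assembly of the 60S subunit. PELP1, TEX10 and WDR18 form its scaffold, LAS1L cuts the spacer, and NOL9 phosphorylates the RNA end that the cut leaves. SENP3 takes SUMO off PELP1, which sets where the scaffold sits in the nucleus, and MDN1 is a large AAA ATPase that strips assembly factors, the scaffold among them, from the maturing 60S particle. The complex is also known from heterochromatin and Polycomb target genes, where it degrades RNA, and TEX10 is known in embryonic stem cells as a partner of SOX2.

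The first table held 10 libraries of 129Sv/J cells. Epiblast-like cells (EpiLCs), the culture state from which primordial germ cell-like cells (PGCLCs) are induced, were untreated, and PGCLCs of day 2 and day 4 had either DMSO, the solvent, or 500 nM dTAG13, a small molecule that brings proteins carrying a degron tag to the degradation machinery. There were 2 libraries in each of these 5 groups. The second table held 12 libraries of the same strain, from a line with the empty vector and from 2 clones that overexpress Tex10, each as EpiLCs and as PGCLCs of day 2, day 4 and day 6, with no compound. The third held 4 libraries of testis from C57BL/6N mice, 2 wildtype and 2 Tex10 conditional knockout (cKO), likewise untreated. The tag on Tex10, the promoter of the vector, the Cre driver, the deleted exons and the age of the mice are not given in the sources used here. Replicates are not said to come from separate cultures, so p-values measure only the spread between these libraries, which may be technical. In the overexpression table the libraries of a line share their cells, and with 1 empty-vector line a clone effect and a transgene effect cannot be told apart.

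Each library held between 5055362 and 8564563 reads assigned to genes. Values are CPM (reads of a gene relative to all reads of its library) scaled by the authors with TMM, a factor that evens out library composition. A log2 fold change is a difference of means of log2(value + 1), and "called" means an adjusted p under 0.05 in limma over all genes tested in that table. Where groups of 2 libraries are said not to overlap, this only describes the values. The share of all genes without overlap was not counted.

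The genes lie on 4 chromosomes of the mouse build GRCm38. Tex10 lies at chr4:48430858-48473459 on the minus strand, Pelp1 at chr11:70392883-70410031 on the minus strand and Wdr18 at chr10:79960152-79970203 on the plus strand. Las1l is X-linked, at chrX:95935335-95956962 on the minus strand, and Nol9 lies at chr4:152039321-152061494 on the plus strand. Senp3 lies at chr11:69673115-69682084 on the minus strand and Mdn1 at chr4:32657119-32775217 on the plus strand. All are protein-coding genes of GENCODE M21. Tex10 shares 1097 bases with Invs, a gene on the opposite strand, so that without stranded counting some reads could belong to either.

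The promoters of the 3 scaffold genes are shown as the core of the complex. Las1l and Senp3 were also called lower with dTAG13 at day 4 and are not shown, so these windows do not stand for the members that fell. Each run is 300 bases, 250 before the annotated start and 50 from it, 5′ to 3′ on the gene's strand, from RefSeq on GRCm38.p6, where all 7 symbols had an entry. Capitals mark matches, on either strand, to an E-box (CACGTG), an ETS motif (CCGGAAGT, or ACTTCCGG on the other strand), a YY1 motif (AAGATGGCG), or an NRF1 motif (GCGCATGCG).
Tex10 promoter, chr4:48473414-48473713, minus strand: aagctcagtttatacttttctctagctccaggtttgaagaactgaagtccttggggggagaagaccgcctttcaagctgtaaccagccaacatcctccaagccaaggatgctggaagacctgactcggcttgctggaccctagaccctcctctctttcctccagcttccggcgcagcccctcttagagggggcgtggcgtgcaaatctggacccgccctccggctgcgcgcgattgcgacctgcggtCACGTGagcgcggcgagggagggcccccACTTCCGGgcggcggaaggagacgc
Pelp1 promoter, chr11:70409982-70410281, minus strand: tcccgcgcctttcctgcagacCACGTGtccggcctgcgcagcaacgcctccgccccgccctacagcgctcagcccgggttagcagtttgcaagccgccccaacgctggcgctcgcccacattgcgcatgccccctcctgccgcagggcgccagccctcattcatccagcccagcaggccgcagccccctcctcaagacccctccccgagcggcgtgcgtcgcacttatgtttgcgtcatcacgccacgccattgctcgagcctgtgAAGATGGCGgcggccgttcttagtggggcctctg
Wdr18 promoter, chr10:79959902-79960201, plus strand: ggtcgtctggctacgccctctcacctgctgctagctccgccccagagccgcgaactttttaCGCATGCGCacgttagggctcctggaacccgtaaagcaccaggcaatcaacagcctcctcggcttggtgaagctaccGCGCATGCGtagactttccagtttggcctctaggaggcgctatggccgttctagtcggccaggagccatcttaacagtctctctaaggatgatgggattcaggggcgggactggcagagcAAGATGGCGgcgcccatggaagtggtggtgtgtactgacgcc
The E-box occurred in the Tex10, Pelp1 and Mdn1 windows and in 7.17% of 32544 distinct promoter windows of this length. The ETS motif was found in the Tex10 window and in 3.92% of all windows, and the YY1 motif in the Pelp1 and Wdr18 windows and in 1.41% of all windows. The NRF1 motif had 2 matches in the Wdr18 window and occurred in 1.76% of all windows, and Las1l, Nol9 and Senp3 had no match to any motif searched. The choice of string matters for NRF1: with a C added at its end it had no match in any of the 7 genes' windows and occurred in 0.974% of all windows. The YY1 string with a G added kept its matches in Pelp1 and Wdr18 and occurred in 0.854%. These are matches of letters, not binding sites.

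With dTAG13, no partner transcript was higher at either day, and those of Pelp1, Las1l and Senp3 were lower at both. At day 2, 3 of the 6 partners fell and Tex10 itself was not called. In that comparison 19.9% of all 16605 genes tested were called lower, 13.7% higher and 33.6% in either direction. At day 4, 4 of the 6 partners and Tex10 fell, against 26% of all genes called lower, 15.8% higher and 41.8% in either direction. Pelp1 fell by 31.8% and 31.4% and Senp3 fell by 31.0% and 36.2% at day 2 and day 4, and Mdn1 was called at neither day.

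Because dTAG13 acts on the tagged protein, the Tex10 transcript is no measure of whether the protein was lost. Its level was 106 and 113 in the day 2 DMSO libraries and 104 and 94.0 with dTAG13, lower in both treated libraries by a little (log2 fold change -0.14 ± 0.11 SE, limma adjusted p = 0.322). At day 4 it was 110 and 105 with DMSO and 76.8 and 72.8 with dTAG13. The day 4 groups stood well apart, and the transcript fell by 29.9% (log2 fold change -0.51 ± 0.11 SE, limma adjusted p = 0.000576). The day 4 effect minus the day 2 effect was -0.37 on the log2 scale, with an unadjusted limma p of 0.0246 and an adjusted p of 0.316. Invs, which shares bases with Tex10, went the other way at day 4 (log2 fold change 0.79 ± 0.19 SE, limma adjusted p = 0.00235).

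Pelp1, the scaffold subunit that SENP3 acts on, was at 185 and 176 in the day 2 DMSO libraries and at 117 and 129 with dTAG13. At day 4 it was at 160 and 187 with DMSO and at 124 and 113 with dTAG13. Both treated libraries lay below both controls at each day. Its log2 fold changes of -0.55 at day 2 and -0.54 at day 4 (SE 0.11 for both, limma adjusted p = 0.000412 and 0.000319) were nearly the same size. Wdr18, the third scaffold subunit, was at 86.8 and 86.0 with DMSO and at 75.1 and 68.8 with dTAG13 at day 2, and at 77.1 and 76.3 against 58.8 and 58.2 at day 4. Its groups did not overlap at either day, but it passed the test at day 4 (log2 fold change -0.39 ± 0.11 SE, limma adjusted p = 0.00694) and not at day 2 (log2 fold change -0.26 ± 0.11 SE, limma adjusted p = 0.0681). The day 4 call was lost with median-ratio scaling of the libraries (-0.269, limma adjusted p = 0.0504). It was also lost in edgeR on the reads (-0.266, edgeR adjusted p = 0.0624).

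Las1l encodes the nuclease of the complex. At day 2 it was at 78.1 and 88.9 with DMSO and at 58.6 and 56.3 with dTAG13, and at day 4 at 81.0 and 82.6 against 61.7 and 60.2. The treated libraries were again below the controls at both days, and Las1l fell by 30.7% at day 2 and 25.2% at day 4 (limma adjusted p = 0.00117 and 0.00568). As an X-linked gene it moved beside a shift of its chromosome: the median log2 fold change of 567 X-linked genes was -0.22 at day 2, against -0.08 for autosomal genes, and 25.2% of X-linked genes had a lower value than Las1l. At day 4 the medians were -0.17 and -0.13, with 31.7% of X-linked genes below Las1l. Xist, the RNA that coats an inactive X chromosome, was at 5.41 and 5.02 with DMSO and 250.2 and 253 with dTAG13 at day 2, and at 1.72 and 2.99 against 94.2 and 115 at day 4. EpiLCs had 129 and 138. The part of Xist or of the X-linked shift in the Las1l value was not tested.

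Nol9, the polynucleotide kinase that works with LAS1L, was called at neither day. At day 2 it was at 135 and 170 with DMSO and 157 and 136 with dTAG13, so the groups overlapped (log2 fold change -0.05 ± 0.12 SE, limma adjusted p = 0.771). At day 4 it was at 138 and 161 against 128 and 116, without overlap (log2 fold change -0.29 ± 0.12 SE, limma adjusted p = 0.0676). The 95% interval of the day 4 fold, 0.685 to 0.979, holds the Las1l fold of 0.748 at that day.

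Senp3, the SUMO protease that works on PELP1, had the largest decrease of the 7 at day 4. It was at 151 and 149 with DMSO and 109 and 97.5 with dTAG13 at day 2, and at 180 and 175 against 117 and 109 at day 4. Every treated library was below every control of its day, and both decreases were called (limma adjusted p = 0.000376 and 2.99e-05). Mdn1, the ATPase, was at 611 and 653 with DMSO and 575 and 531 with dTAG13 at day 2. At day 4 it was at 478 and 611 against 495 and 465, and these groups overlapped. Its log2 fold changes of -0.19 and -0.17 were not called (limma adjusted p = 0.197 and 0.235).

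**Figure D1:**
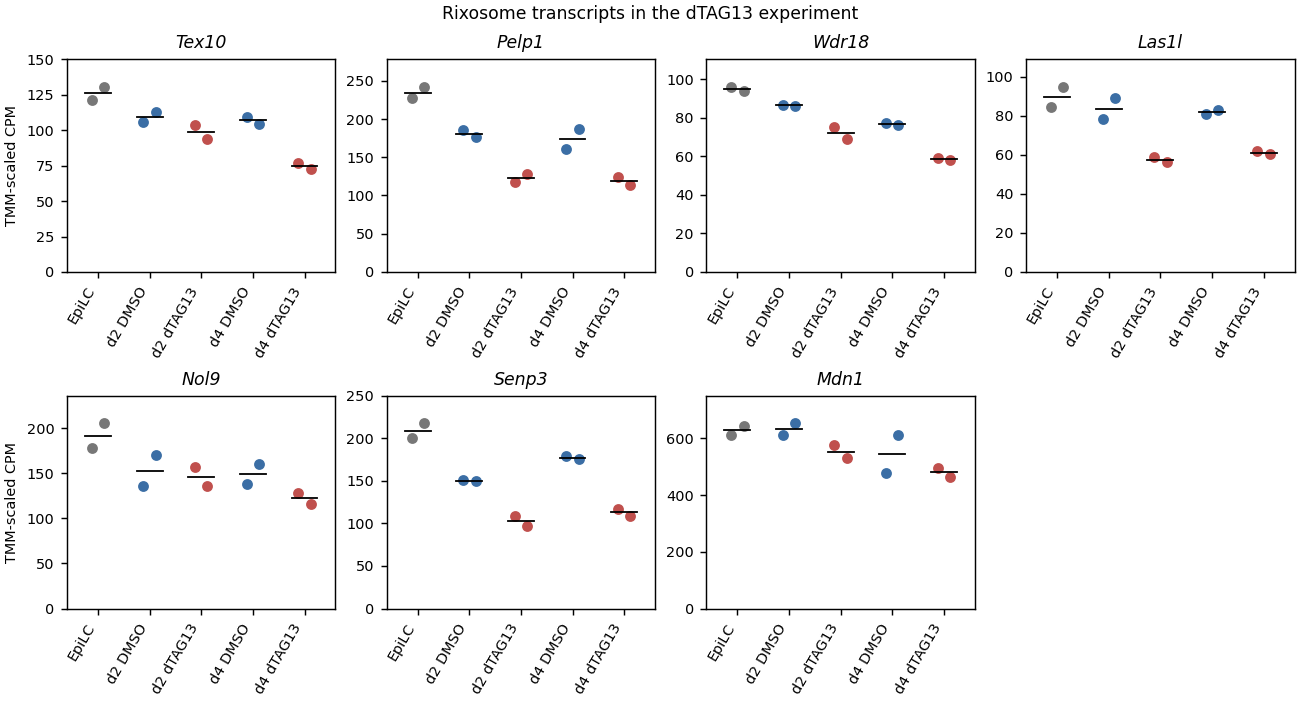
Values of the 7 transcripts in the 10 libraries of the dTAG13 experiment, as TMM-scaled CPM on axes that start at 0; each point is 1 library and each bar the mean of 2. Pelp1, Las1l and Senp3 are lower with dTAG13 than with DMSO at both days, while Nol9 at day 2 and Mdn1 at day 4 overlap between treatments.

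No member's effect was called different between the days. The test of the day 4 effect minus the day 2 effect called 1.25% of all genes and 0 of the 7 members in limma, and apart from Tex10 no member had an adjusted p under 0.649. The all-gene count of 208 behind this share became 16 with no filter on low values and 0 without limma's variance trend. Over all genes, 2013 had an unadjusted p under 0.05, and edgeR on the reads also called 0 members.

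The scale matters for the day 4 values. The median log2 fold change of all genes was -0.13 as deposited and -0.03 when libraries were put on a median-ratio scale instead. On that second scale the day 4 log2 fold changes were -0.53 for Senp3, -0.43 for Pelp1, -0.40 for Tex10 and -0.30 for Las1l, all still called, and -0.27 for Wdr18, with a limma adjusted p of 0.0504. Those of Nol9 and Mdn1 were -0.17 and -0.05, and at day 2 the sign for Nol9 flipped to 0.04. The authors' deposited table is more sparing: at day 4 its false discovery rate was 0.0127 for Senp3, 0.0818 for Tex10, 0.188 for Las1l, 0.243 for Wdr18 and 0.437 for Pelp1. At day 2 the authors' deposited table gave 0.0625 for Las1l, 0.0851 for Senp3 and 0.484 for Pelp1. The DMSO library of day 4 with replicate number 1 also mattered, because without it Mdn1 (log2 fold change -0.35, limma adjusted p = 0.00647) and Nol9 (-0.39, limma adjusted p = 0.0256) were called as well and all 7 members were lower. Without replicate number 2 of the same group the Mdn1 log2 fold change was 0.006.

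Markers of cell state moved in the same comparisons. Of 10 pluripotency markers, 9 were called lower with dTAG13 at each day, their summed level going from 3036 to 3203 with DMSO to 1701 to 1817 at day 2, and from 3942 to 4519 with DMSO to 2082 to 2387 at day 4. Of 8 primordial germ cell markers 4 were called lower and 1 higher at each day, and their sum went from 254 to 269 with DMSO to 219 to 226 at day 2 and from 295 to 327 to 264 to 272 at day 4. Of 9 mesoderm and endoderm markers 4 could be tested and 2 were called higher at each day, with sums of 13.6 to 16.8 against 36.7 to 45.6 at day 2 and of 20.0 to 21.3 against 42.4 to 45.1 at day 4; Foxa2 was at 0 in the day 2 DMSO libraries and T in the day 4 dTAG13 libraries. Of 8 markers of the formative epiblast, 1 was called higher and 2 lower at day 2 (346 to 397 against 311 to 328), and 3 higher and 2 lower at day 4 (233 to 246 against 208 to 213). The part of these changes in the partner transcripts was not tested.

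In the course of induction without dTAG13, 2 of the 7 members were called lower at day 2 than in EpiLCs. The median log2 fold change of the members was -0.20, against -0.03 for all genes. From EpiLCs to day 2 with DMSO, Senp3 went from 201 and 218 to 151 and 149 (log2 fold change -0.47 ± 0.10 SE, limma adjusted p = 0.00149). Pelp1 went from 227 and 242 to 185 and 176 (log2 fold change -0.37 ± 0.11 SE, limma adjusted p = 0.0126). That is 2 of 7 members against 14.7% of all genes called lower, 11.5% higher and 26.2% in either direction. The Pelp1 call was lost without EpiLC replicate 2 and without day 2 DMSO replicate 2 (limma adjusted p = 0.12 and 0.0994). Tex10, at 121 and 131 in EpiLCs, Wdr18, at 95.9 and 93.6, Las1l, at 84.4 and 94.7, Nol9, at 178 and 205, and Mdn1, at 611 and 645, were not called. From day 2 to day 4 with DMSO limma called 0 of 7 members and 5.52% of all genes in either direction, edgeR on the reads called 0 members too, and 3042 genes had an unadjusted p under 0.05. The all-gene count of 916 behind this share became 341 with no filter on low values and 445 without limma's variance trend. Senp3 alone of the 7 had an unadjusted limma p under 0.05 there (log2 fold change 0.24, adjusted p = 0.209).

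Averaged over the 4 stages, the partner transcripts in the overexpression clones were near their level in the empty-vector line. Over the 4 stages Tex10 rose 2.76-fold in the clones (95% interval 2.38 to 3.21, log2 fold change 1.47 ± 0.11 SE, limma adjusted p = 2.14e-11), and it was higher in 8 of 8 clone libraries. None of the 6 partners was called by limma or by edgeR on the reads, while limma called 8.76% of all 15255 genes in either direction, 4.54% higher and 4.22% lower. That all-gene count of 1337 became 425 without clone 1, 413 without clone 2 and 3171 with line as a random block, and no partner was called in any of these. Partner log2 fold changes ran from -0.02 for Mdn1 to 0.12 for Las1l. The 95% intervals of all 6 folds lay between 0.910 and 1.20, so a partner change of the size of Tex10's own lies outside them. These intervals treat stages as replicates and average over them. At day 4 and day 6 the clone mean of every partner was above the vector line, by 0.08 to 0.21 on the log2 scale. In EpiLCs and at day 2 both signs occurred, from -0.26 to 0.16. Each stage rests on 1 vector library.

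Some markers of cell state were called here too, where 8.76% of all genes were called in either direction. Of 8 formative epiblast markers 3 were called lower in the clones and 0 higher, and their summed level in stage order was 3596, 773, 407 and 502 in the vector line, against 3538 to 3666, 572 to 595, 299 to 322 and 402 to 411 in the clones. Of 10 pluripotency markers 2 were called higher and 1 lower (1560, 5009, 6068 and 6906 against 1472 to 1514, 5608 to 5690, 6487 to 6625 and 6717 to 6743). Of 8 primordial germ cell markers 1 was called higher (43.1, 319, 347 and 286 against 41.9 to 48.8, 377 to 384, 275 to 286 and 296 to 310.5), and of 5 mesoderm and endoderm markers tested 1 was called lower (48.8, 19.8, 58.5 and 37.5 against 44.9 to 52.5, 10.9 to 16.0, 32.7 to 38.8 and 31.9 to 33.2). In the clones Sox17 and Kdr were at 0 at day 2 and Fgf5 at day 6. Their part in the values of the partners and of the ribosome assembly factors was not tested.

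The Tex10 level in the empty-vector line was 213 in EpiLCs, 160 at day 2, 147 at day 4 and 145 at day 6. In clone 1 it was 394, 368, 481 and 654 at the same stages, and in clone 2 385, 330, 493 and 651. The 2 clones were close to each other at each stage, and their mean log2 difference from the vector line was 0.86, 1.11, 1.72 and 2.17 in stage order. Both the lower level in the vector line and the higher level in the clones at later stages enter this widening. In the authors' deposited table the corresponding log2 fold changes for Tex10 were 0.866, 1.12, 1.73 and 2.17.

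Against this gain, Pelp1 was at 180, 210, 186 and 197 in the vector line, at 174, 183, 200 and 210 in clone 1 and at 176, 189, 208 and 221 in clone 2, again in stage order. The clones were below the vector line in EpiLCs and at day 2 and above it at day 4 and day 6, by log2 differences of -0.04, -0.18, 0.13 and 0.12. Wdr18 was at 123, 73.5, 68.7 and 78.0 in the vector line, at 116, 71.0, 75.7 and 94.6 in clone 1 and at 131, 70.8, 73.9 and 86.1 in clone 2. Its mean log2 differences were 0.01, -0.05, 0.12 and 0.21.

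Las1l was higher in 7 of 8 clone libraries, at 126, 104, 94.4 and 86.4 in the vector line, 131, 108, 96.1 and 91.6 in clone 1 and 119, 124, 124 and 99.0 in clone 2. The difference was uneven between the clones at day 2 and day 4, and over all stages its log2 fold change was 0.12 ± 0.07 SE (limma adjusted p = 0.309). Nol9 was at 221, 202, 186 and 189 in the vector line, 211, 189, 201 and 200.5 in clone 1 and 218, 192, 203 and 199.8 in clone 2. Its clone means differed from the vector line by -0.05, -0.09, 0.12 and 0.08 on the log2 scale.

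Senp3 was at 286, 233, 236 and 273 in the vector line, 249, 228, 272 and 312 in clone 1 and 243, 246, 273 and 301 in clone 2. Its mean log2 difference went from -0.22 in EpiLCs to 0.03, 0.21 and 0.17. Mdn1 was at 458, 370, 271 and 262 in the vector line, 416, 311, 306 and 287 in clone 1 and 431, 307, 310 and 278 in clone 2. The clones were below the vector line in EpiLCs and at day 2 and above it later, with log2 differences of -0.11, -0.26, 0.19 and 0.11. With 1 vector library at each stage, a stage difference common to both clones rests on that library alone. The test of whether the difference varies with stage was added after these values were seen, and its error comes only from how closely the 2 clones agree, so it takes no account of the spread of a single vector library. It called Tex10 (limma adjusted p = 4.13e-09) and Mdn1 (limma adjusted p = 0.0288) and 3.09% of all genes, and Senp3 had an adjusted p of 0.0706. Without the mean-variance trend limma called no gene in it, with an adjusted p of 0.321 for Tex10 and 0.494 for Mdn1. In the authors' deposited table the lowest false discovery rate of a partner within a stage was 0.0565, for Mdn1 at day 2.

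**Figure D2:**
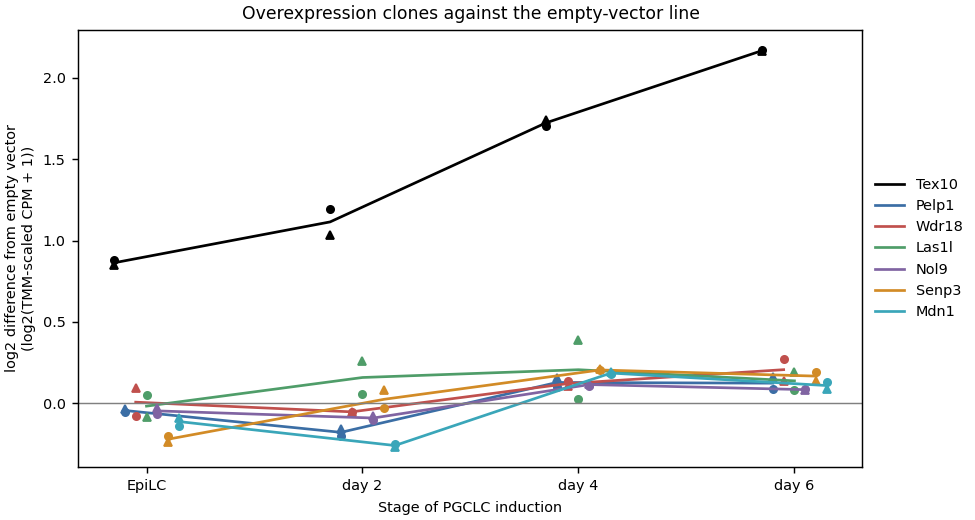
Difference of each Tex10 overexpression clone from the empty-vector line at the same stage, as log2(TMM-scaled CPM + 1); circles are clone 1, triangles clone 2 and lines join clone means. The Tex10 mean runs from 0.86 in EpiLCs to 2.17 at day 6, while the partner means stay between -0.26 and 0.21.

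Across stages in these 3 lines, Wdr18 and Mdn1 were the members called lower from EpiLCs to day 2. When a line was left out, 2 to 4 members were called at this step. Nol9 was also lower, without overlap, but not called (log2 fold change -0.16 ± 0.07 SE, limma adjusted p = 0.0797). Wdr18 fell by 0.77 on the log2 scale (SE 0.09, limma adjusted p = 4.27e-08) and Mdn1 by 0.40 (SE 0.08, limma adjusted p = 0.000132), which is 2 of 7 members against 22.1% of all genes called lower, 24.1% higher and 46.3% in either direction. In the dTAG13 table the same step called Pelp1 and Senp3 instead. The tables differ in library kit as well as in cells, per the labels, and the difference between them was not tested. From day 2 to day 4 and from day 4 to day 6 limma called 0 of 7 members, against 23% and 6.88% of all genes in either direction, with 5313 and 3145 genes at an unadjusted p under 0.05 and 0 members called by edgeR on the reads. The all-gene counts behind these shares, 3509 and 1049 genes, became 1564 and 255 without clone 1 and 1614 and 306 without clone 2. Tex10 in this test mixes the vector line with the clones: without the vector line its rise in the clones was called from day 2 to day 4 (log2 fold change 0.48, limma adjusted p = 1.13e-09) and from day 4 to day 6 (0.42, limma adjusted p = 3.19e-07). Senp3 was then also called from day 2 to day 4 (log2 fold change 0.20, limma adjusted p = 0.0193).

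In testis with the conditional knockout, 1 of the 6 partners was called higher and 1 lower, near the shares of all genes. Tex10 and Pelp1 fell and Las1l rose, and the other 4 were not called, against 29.1% of all 20658 genes called in either direction, 16.1% higher and 13.1% lower. That all-gene count of 6016 became 3148 without cKO replicate 1 and 2135 without limma's variance trend. Tex10 was at 79.1 and 44.1 in wildtype and at 29.8 and 27.3 in cKO testis. Both cKO libraries were below both wildtype libraries, and the wildtype pair was itself far apart. The log2 fold change of -1.02 ± 0.21 SE (limma adjusted p = 0.00318) became -0.61 without wildtype replicate 1 (limma adjusted p = 0.0189). The deposited values are per whole gene, so this one does not separate cells that kept the gene from transcript left in cells that lost some exons.

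Pelp1 was at 104 and 101 in wildtype and at 78.1 and 76.7 in cKO testis, with each pair close together, and it fell by 24.0% (log2 fold change -0.40 ± 0.12 SE, limma adjusted p = 0.026). The call was lost without cKO replicate 1, cKO replicate 2 or wildtype replicate 1 (limma adjusted p = 0.119, 0.123 and 0.0618). Wdr18, the other scaffold partner, was at 32.4 and 34.2 in wildtype and at 41.2 and 35.1 in cKO testis. Both cKO libraries were above both wildtype libraries, by little, and its log2 fold change of 0.19 ± 0.16 SE was not called (limma adjusted p = 0.398).

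Las1l was at 13.2 and 8.16 in wildtype and at 26.7 and 16.3 in cKO testis, without overlap, a 1.92-fold rise (95% interval 1.28 to 2.87, limma adjusted p = 0.0184). Both pairs were wide, and the call was lost without cKO replicate 1 (log2 fold change 0.60, limma adjusted p = 0.209) and without wildtype replicate 2 (0.63, limma adjusted p = 0.0891). The 719 X-linked genes tested had a median log2 fold change of 0.57 in this comparison and autosomal genes of 0.003, and 68.2% of X-linked genes had a lower value than Las1l. Nol9, on chromosome 4, was at 13.9 and 13.5 in wildtype and at 21.3 and 19.1 in cKO testis. Its cKO libraries stood above the wildtype pair, but the change was not called (log2 fold change 0.53 ± 0.20 SE, limma adjusted p = 0.0602). Nol9 was called with a replicate block, though the labels do not say that replicate numbers pair the libraries.

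Senp3 was at 65.1 and 59.2 in wildtype and at 79.0 and 75.0 in cKO testis (log2 fold change 0.31 ± 0.13 SE, limma adjusted p = 0.0943), also without overlap. Mdn1 was at 68.0 and 78.9 in wildtype and at 73.7 and 72.0 in cKO testis, inside the wildtype range (log2 fold change -0.01 ± 0.13 SE, limma adjusted p = 0.975). In the authors' deposited table the false discovery rate was 8.23e-05 for Tex10, 0.0152 for Pelp1 and 0.00707 for Las1l, and 0.0563 for Nol9 and 0.102 for Senp3. Without the mean-variance trend limma called none of the 7 (adjusted p = 0.0782 for Tex10, 0.106 for Las1l and 0.143 for Pelp1).

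Whole testis is a mixture, and its cell-type markers moved beside these values. All 8 Sertoli cell markers were called higher in cKO testis, their summed level being 249 to 281 in wildtype and 663 to 766 in cKO. All 6 Leydig cell markers were called higher too (242 to 348 against 596 to 982), as were 4 of 7 spermatogonial markers tested (151 to 165 against 214 to 236). Of 8 round spermatid markers 7 were called lower (1437 to 1449 against 953 to 1019), and so were 7 of 8 elongated spermatid markers (24212 to 27088 against 17290 to 17970). Among 8 spermatocyte markers 2 were called higher and 1 lower (615 to 627 against 555 to 590). Of 6 macrophage markers tested 3 were called higher (56.3 to 63.9 against 89.5 to 126), and of 3 peritubular markers 2 (20.7 to 27.2 against 43.2 to 51.6). No marker of these lists present in the table was at 0 in either group. In such bulk samples fewer cells of a type and less RNA per cell cannot be told apart. The part of the cell mixture in the Pelp1 and Las1l values was not tested.

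**Figure D3:**
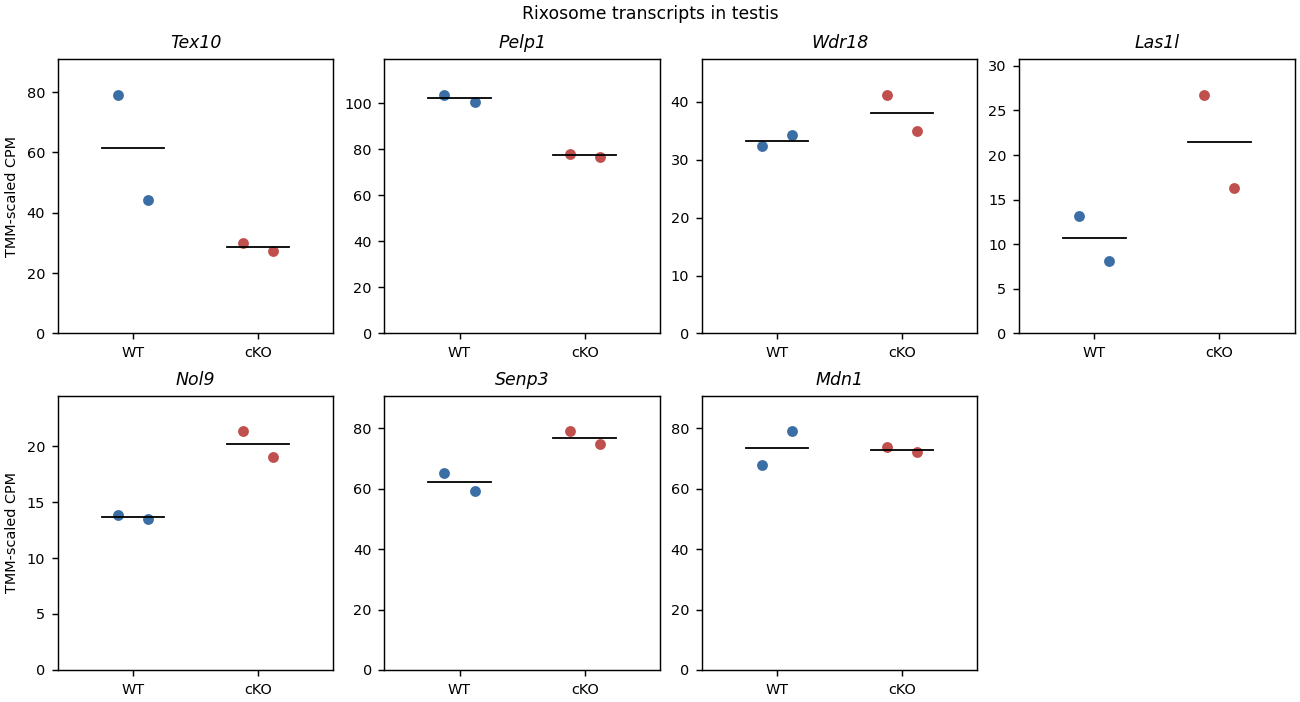
Values of the 7 transcripts in wildtype (WT) and Tex10 conditional knockout (cKO) testis, as TMM-scaled CPM on axes that start at 0; each point is 1 library and each bar the mean of 2. Tex10 and Pelp1 were called lower in cKO and Las1l higher. Wdr18, Nol9 and Senp3 lie above the wildtype pair but were not called, and Mdn1 falls within it.

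Set side by side, no partner was called in all of these comparisons. Pelp1 was lower in cells with dTAG13 and in cKO testis, with log2 fold changes of -0.55, -0.54 and -0.40, and at 0.01 with overexpression. Las1l had log2 fold changes of -0.53 and -0.42 with dTAG13 and 0.94 in cKO testis. Senp3 was at -0.54 and -0.65 with dTAG13 and at 0.31, not called, in testis. The 2 dTAG13 comparisons use different control libraries.

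**Figure D4:**
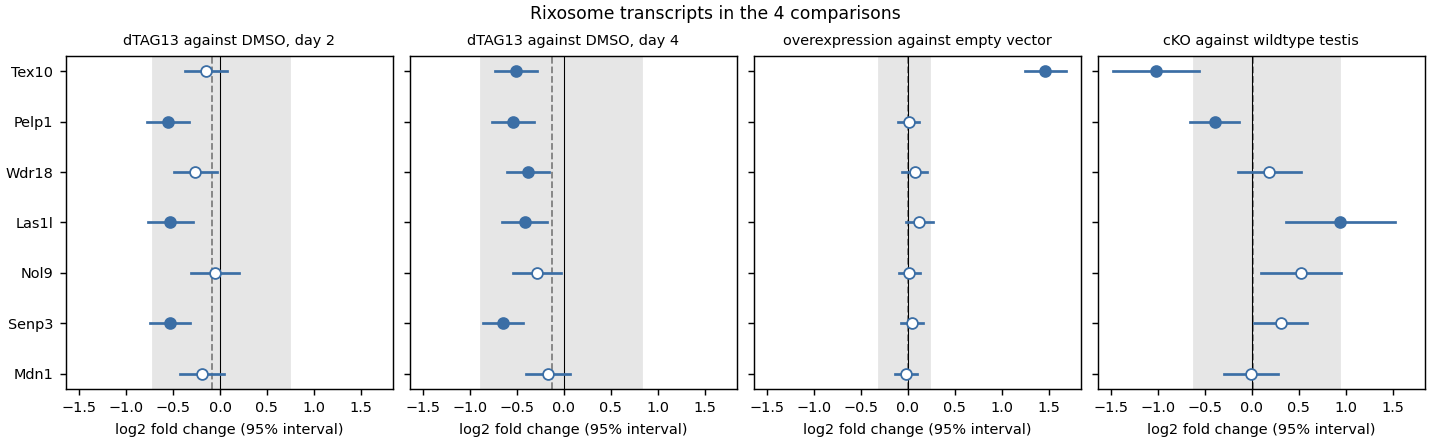
Log2 fold change of each transcript in the 4 comparisons, with its 95% interval; filled points are called at an adjusted p under 0.05 in limma, the grey band spans all genes tested except the lowest and the highest decile and the dashed line their median. All 6 partner points lie within the band in every panel except Las1l in testis (0.94), which sits at its edge, while Tex10 lies outside it with overexpression (1.47) and in testis (-1.02).

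Other factors of ribosome assembly were counted in the same comparisons. Of 35 further factors of the 60S subunit, 34 could be tested, and at day 2 10 were called lower and 0 higher, where 19.9% of all genes were called lower (median log2 fold change -0.22, against -0.09 for all genes). At day 4 18 were called lower and 1 higher, where 26% of all genes were called lower (median -0.38, against -0.13 for all genes). Npm1, which encodes the nucleolar chaperone nucleophosmin, fell by 0.85 on the log2 scale (SE 0.12, limma adjusted p = 7.18e-06), and Mrto4, which encodes a placeholder for a stalk protein on the pre-60S particle, by 0.83 (SE 0.15, limma adjusted p = 0.000131). Mak16, an early pre-60S factor, was the 1 that rose (log2 fold change 0.42 ± 0.11 SE, limma adjusted p = 0.00455). Of 27 factors of the 40S subunit, 13 were called lower and 1 higher at day 2 (median -0.38) and 16 lower and 0 higher at day 4 (median -0.37). Rcl1, a factor of early 40S processing, fell by 0.77 (SE 0.14, limma adjusted p = 0.000119), and Nop56, a core protein of box C/D snoRNPs, by 0.74 (SE 0.11, limma adjusted p = 1.09e-05).

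With overexpression, where 4.54% of all genes were called higher and 4.22% lower, 6 of the 34 60S factors were called higher and 1 lower (median log2 fold change 0.13, against 0.01 for all genes), among them Rpf2 (0.38 ± 0.10 SE, limma adjusted p = 0.0165) and Rpf1 (0.36 ± 0.11 SE, limma adjusted p = 0.027), both Brix-domain assembly factors. Mak16 was the 1 that fell (log2 fold change -0.33 ± 0.06 SE, limma adjusted p = 0.000394). Of the 40S factors 6 rose and 0 fell (median 0.11), including Utp3 (0.32 ± 0.05 SE, limma adjusted p = 0.000134) and Rcl1 (0.30 ± 0.08 SE, limma adjusted p = 0.0235). In testis 4 of the 34 60S factors rose and 4 fell (median 0.26, against 0.01 for all genes), where 16.1% of all genes were called higher and 13.1% lower, so the list's share called was below the 29.1% of all genes. Ddx27, an RNA helicase, rose (log2 fold change 0.75 ± 0.24 SE, limma adjusted p = 0.0336), as did Nip7 (0.66 ± 0.22 SE, limma adjusted p = 0.0386). Efl1, a GTPase of late 60S maturation, fell (log2 fold change -1.03 ± 0.21 SE, limma adjusted p = 0.00278), as did Isg20l2, an exonuclease (-0.76 ± 0.12 SE, limma adjusted p = 0.000482). Of the 27 40S factors 6 rose and 1 fell in testis (median 0.19), where 16.1% of all genes were called higher and 13.1% lower: Nop56 (0.99 ± 0.27 SE) and Fbl (0.93 ± 0.32 SE) led the rises, and Bms1 fell by 0.52 (SE 0.13), with limma adjusted p of 0.0152, 0.044 and 0.0071.

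Over the 10 dTAG13 libraries, likeness to Tex10 was measured as the root mean square difference between centred log2 values. A small number means profiles that run together by similar amounts. A large number can come from a different course or from the same course with larger swings. Of 16604 other genes, Wdr18 ranked 5 (0.0702), after Nop9 (0.0396), Mfsd10 (0.0611), Ubfd1 (0.0616) and Pdcd11 (0.063). Nol9 ranked 149, Mdn1 623, Las1l 787, Pelp1 1890 and Senp3 3067. The partners with the largest dTAG13 effects had the largest differences from Tex10 over this table, where EpiLC and DMSO levels count as well. Over the 12 libraries of the overexpression table, of 15254 other genes, Senp3 ranked 1221, Pelp1 2580, Nol9 2992, Las1l 3390, Wdr18 4098 and Mdn1 7146. Their differences from Tex10 there, 0.700 to 0.817, lay around the 0.758 that a gene at a constant level would have. By this measure these ranks show no likeness to Tex10. In the dTAG13 table a constant gene would have 0.251, and Senp3 lay next to that (0.248). Senp3 was not constant there, running from 97.5 to 218, so its number does not show a lack of likeness in direction. These ranks are descriptions over libraries that share lines and groups.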

How the data were processed

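RNA was extracted with Trizol, and libraries were made with the NuGEN Ovation Mouse kit for the dTAG13 and testis samples and a Tecan Universal Plus mRNA kit for the overexpression samples, per the labels' protocols. The submitters' processing notes name Bowtie2 2.3.4.3, SAMtools 1.9, HTSeq 0.11.2, edgeR 3.26.8 and the build mm10, without their roles; counting options, strand and annotation are not given in the sources used here. The deposited values are a signal per gene, reads scaled by the authors to TMM-adjusted CPM. In each column 100% of values were counted as whole multiples of 1 step, under a tolerance for rounding that is not given here. Reads were recovered with these steps. For day 4 DMSO replicate 2 the step is so near the rounding that the check decides nothing, and its reads were recovered with that step all the same. Log2 fold changes, p-values and false discovery rates of the authors' own comparisons were also deposited and are quoted only as such.

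Each table was tested alone with limma 3.58.1 in R 4.3.3 (variance trend, pseudocount 1, genes with a mean of at least 1, all libraries of the table in the fit), on 16605, 15255 and 20658 genes, with Benjamini-Hochberg adjustment over all of them. The overexpression fit had stage as a covariate, and the fit of stage courses had line. Alternatives were edgeR 4.0.16 on the recovered reads, median-ratio scaling, other pseudocounts and filters, no variance trend, a replicate block and leaving out libraries. edgeR called 5033 genes with dTAG13 at day 2, 6407 at day 4, 1285 with overexpression and 5904 in testis. Both tests were tested on simulated data: with a log2 change of 1, limma recovered 89% of changed genes in the day 4 comparison (17176 genes), 99% with overexpression (15222 genes) and 79% in testis (20474 genes). Of limma's calls in these simulations 8.7%, 5.69% and 2.19% were false, so the first 2 shares exceed the threshold of 0.05. In them 100 genes changed by 1 and 100 by 2 on the log2 scale, far fewer genes than were called with dTAG13. These changes were larger than those of the partners with dTAG13, and libraries were drawn as independent. The shares are therefore no measure of power for the members.

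The 7 members, the ribosome assembly and marker lists and the tests were chosen with earlier results of these data known. Besides the members, the text names the 2 list genes with the largest called rise and fall in a comparison, the 5 genes most like Tex10, and Xist and Invs beside the genes they bear on. Between replicates the reads per gene differed by more than counting noise (chi-square per gene 1.81 to 13.6), so no libraries were merged.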

Additional observations from a re-analysis of the deposited data

Results flagged for a closer look

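Tex10 stood out because its excess in the overexpression clones differed between stages, with a spread of 1.303 on the log2 scale between the stage with the smallest mean difference from the empty-vector line (0.86, EpiLCs) and the stage with the largest (2.17, day 6). Mdn1 stood out by the same test, with a spread of 0.4448 from -0.26 at day 2 to 0.19 at day 4. The test of variation between stages was chosen after seeing the data, and each stage has 1 empty-vector library, whose own spread the test cannot take into account, so the Mdn1 spread cannot be told apart from variation between single vector libraries. Its limma adjusted p was 4.13e-09 for Tex10 and 0.0288 for Mdn1, and 0.321 and 0.494 without the mean-variance trend.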

How the results depend on the processing

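Of 735 alternative values for single members, 668 kept their direction and side of the threshold, 14 lost a call, 12 gained one and 41 changed sign. None of the sign changes was called (lowest adjusted p 0.608), and the largest value among them was 0.155 in size. The causes were not tested. The member counts for dTAG13 stayed at 3 at day 2 and between 4 and 7 at day 4, and overexpression kept 1, in the settings tried. From EpiLCs to day 2 with DMSO the count of 2 became 1 with no filter on low values and 1 without the variance trend, and 1 to 2 without single libraries. From day 2 to day 4 with DMSO it was 0 to 1 without single libraries. For the stage courses of the overexpression table, "vector lines" means the empty-vector line and both clones together. In the vector lines the member count was 2 to 4, 0 to 2 and 0 to 1 for the successive stage pairs when a line was left out. In testis the member count was 0 without the variance trend and 1 to 2 without single libraries, and the test of variation between stages called 0 without the trend.

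Sign changes for Nol9 were 0.035 with dTAG13 at day 2 under median-ratio scaling and 0.036 in edgeR, and 0.00682 and 0.00267 from day 4 to day 6 in the vector lines under the same settings. With overexpression Pelp1 was at -0.00163 in edgeR. Without day 4, Pelp1, Nol9 and Senp3 were at -0.032, -0.017 and -0.00875, and without day 6 Pelp1 and Nol9 at -0.031 and -0.00644; Mdn1 was at 0.013 without EpiLCs and 0.062 without day 2.

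Without single libraries, the dTAG13 values ran from -0.217 to 0.107 for Nol9 at day 2 and from -0.348 to 0.00592 for Mdn1 at day 4, and the difference between days from -0.105 to 0.121 for Pelp1 and from -0.155 to 0.199 for Mdn1. From EpiLCs to day 2 with DMSO Mdn1 ran from -0.038 to 0.056. From day 2 to day 4 with DMSO the ranges were -0.075 to 0.015 for Tex10, -0.173 to 0.053 for Pelp1, -0.118 to 0.066 for Las1l and -0.185 to 0.139 for Nol9. In the overexpression table a whole line (a clone or the vector line, 4 libraries) was left out instead. With overexpression Pelp1 then ran from -0.016 to 0.032. In the vector lines from day 2 to day 4 Pelp1 ran from -0.023 to 0.133, Wdr18 from -0.019 to 0.076 and Nol9 from -0.019 to 0.086, and from day 4 to day 6 Nol9 ran from -0.012 to 0.0075. In testis Mdn1 ran from -0.114 to 0.099.

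A replicate block left the member counts at 3 and 5 with dTAG13 and 2 and 0 in the DMSO course, and made it 4 in testis, where Nol9 was then called (adjusted p = 0.0451). Same-numbered libraries correlated by -0.0686 to 0.118, and the labels do not say that the numbers pair them. With line as a random block, whose estimated correlation was -0.130, overexpression still called 1 member but 3171 genes. Over all genes the counts under the alternatives alone ran from 3603 to 5879 with dTAG13 at day 2, 5370 to 6894 at day 4, 413 to 3171 with overexpression, 2135 to 7185 in testis, 2496 to 5113 and 341 to 1104 for the DMSO course, 0 to 366 for the difference between days, 5135 to 7065, 1564 to 4080 and 255 to 1427 for the successive stage pairs of the vector lines, and 0 (no variance trend) to 2210 (no filter on low values) for the variation between stages. Leaving out a library of a pair assumes that the lone one varies like the other groups. At this depth each library's floor of 3 reads is far below every member's level.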
